A study of Mus musculus with 4 samples.

Results

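Cell junction and cadherin genes were followed through the accessible chromatin of sorted mouse brain parenchymal macrophages. The set comprised 34 genes: junctional adhesion molecules (JAMs), zonula occludens and polarity genes, cadherins, catenins, nectins with afadin, and actin-binding LIM genes. A merged peak belonged to a gene if its centre lay inside the gene body, or if that gene was the nearest protein-coding gene within 100 kb. By this rule 200 of the 74695 merged peaks of the study belonged to 27 of the 34 genes. The study used ATAC-seq, in which the Tn5 transposase cuts open chromatin, on 4 libraries, 2 labelled MDM and 2 labelled YSM. All 4 carried the genotype Ms4a3-Ai9, which joins the name of a granulocyte and monocyte progenitor gene to that of a Cre-dependent fluorescent reporter, and the treatment label DR-3x, which is not explained. MDM was read from the series title as monocyte-derived macrophages, and YSM is not spelled out. Whether libraries sharing a label came from different animals is not stated. The deposited values were intervals pooled over the libraries, with 1 list of differential peaks for each group. There was therefore no value per library, no spread between replicates and no known depth, and no test was run.

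Epithelial and endothelial sheets are sealed by tight junctions and held together by adherens junctions. In tight junctions, claudins and occludin form the strands, JAMs lie beside them, and scaffolds such as ZO-1 tie them to actin. In adherens junctions, cadherins and nectins bind partners on the next cell and hold on to actin through catenins and afadin. PAR3 proteins place the junctions along the axis of a polarised cell. Most of these genes are best known from epithelium, endothelium and neurons.

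Of the 200 peaks at junction genes, 14 were in the YSM list, which was 7.0% (95% exact binomial interval 3.88 to 11.5) beside 1.48% of all merged peaks. None was in the MDM list, beside 0.145% of all merged peaks. By 3 counts of the total, a count of 0 of 200 allows a share of up to 1.5% (upper limit of the two-sided exact interval 1.83%), so the MDM share could not be told from that of all peaks. A YSM-listed peak is one that the authors' differential analysis assigned to the YSM group, with thresholds that no source at hand states. The 14 peaks lay at 5 genes, with 5 at Jam2, 4 at Ablim1, 3 at Pard3b and 1 each at Marveld2 and Cdh8. Among member genes with peaks, 18.5% (5 of 27) held a YSM-listed peak, beside 4.26% (656 of 15386) of all protein-coding genes with peaks. Member genes with peaks had a median of 6 merged peaks each and all such genes a median of 3, so a member also had more peaks that could be listed. The intervals given here take peaks as independent and cover counting only, and neighbouring peaks of a gene are not independent. The member genes were chosen with earlier results of these data known, so these shares are no independent measure of an excess. Jam2 and Ablim1 held 9 of the 14. Without Jam2 the share was 4.66% (9 of 193), and without both, a choice made after the values were seen, it was 2.78% (5 of 180).

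**Figure D1:**
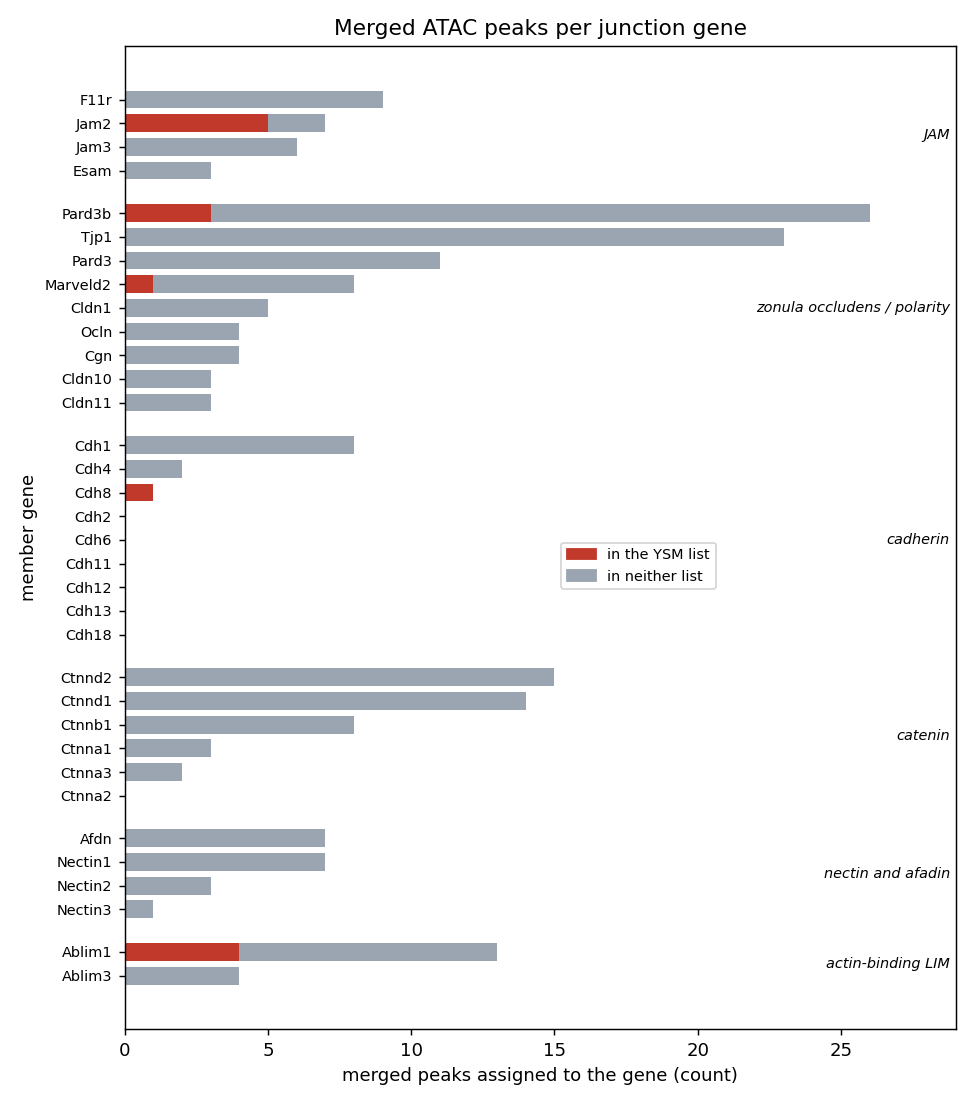
Number of merged peaks assigned to each of the 34 genes (horizontal axis, count), by gene group; red marks peaks in the YSM list and grey marks peaks in neither list. Red appears at Jam2 (5 of 7), Pard3b (3 of 26), Marveld2 (1 of 8), Cdh8 (1 of 1) and Ablim1 (4 of 13), and 7 genes have no bar.

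The bar plot of peaks per gene shows that many peaks did not mean many listed peaks. Tjp1 and Ctnnd2, with 23 and 15 merged peaks, had none in either list, while 5 of the 7 peaks of Jam2 were listed. With 1.48% of all merged peaks in the YSM list, 0 of 23 and 0 of 15 could not be told from that share.

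The sequences below show what lay under the peaks at 4 annotated starts. Ablim1 is shown because one of its starts was the only annotated member start with a YSM-listed peak over it, Pard3b because its start had a peak that was not listed although the gene held 3 listed peaks, and Tjp1 and Ctnnb1 as starts of genes with no listed peak. Each is the window from 250 bases before to 50 after an annotated start, from RefSeq (GRCm38.p6, whose chromosomes are those of mm10), written 5′ to 3′ along the gene. Capitals mark the bases inside the merged peak closest to the start. The windows are chr19:57197582-57197881 on the minus strand for Ablim1, chr1:61638574-61638873 on the plus strand for Pard3b, chr7:65371195-65371494 on the minus strand for Tjp1 and chr9:120933150-120933449 on the plus strand for Ctnnb1.
Ablim1: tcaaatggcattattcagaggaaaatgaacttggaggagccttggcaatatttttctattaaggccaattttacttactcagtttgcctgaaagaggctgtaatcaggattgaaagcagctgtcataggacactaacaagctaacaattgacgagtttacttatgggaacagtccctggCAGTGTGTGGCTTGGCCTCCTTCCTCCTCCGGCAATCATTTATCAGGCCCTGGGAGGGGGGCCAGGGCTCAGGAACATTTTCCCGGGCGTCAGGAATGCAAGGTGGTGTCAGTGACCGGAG
Pard3b: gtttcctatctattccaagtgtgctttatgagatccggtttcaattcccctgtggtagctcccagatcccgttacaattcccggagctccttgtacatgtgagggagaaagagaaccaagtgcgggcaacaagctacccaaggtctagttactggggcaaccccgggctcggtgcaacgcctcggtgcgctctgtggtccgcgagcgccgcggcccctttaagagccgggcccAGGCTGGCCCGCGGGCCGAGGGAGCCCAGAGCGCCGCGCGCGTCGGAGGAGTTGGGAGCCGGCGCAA
Tjp1: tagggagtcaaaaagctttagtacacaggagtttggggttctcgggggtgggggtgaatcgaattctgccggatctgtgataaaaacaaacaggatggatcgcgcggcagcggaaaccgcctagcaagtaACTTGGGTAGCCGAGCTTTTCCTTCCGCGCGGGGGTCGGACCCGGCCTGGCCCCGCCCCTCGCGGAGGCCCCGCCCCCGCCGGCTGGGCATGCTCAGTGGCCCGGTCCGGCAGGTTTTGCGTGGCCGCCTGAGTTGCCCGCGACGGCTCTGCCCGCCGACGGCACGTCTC
Ctnnb1: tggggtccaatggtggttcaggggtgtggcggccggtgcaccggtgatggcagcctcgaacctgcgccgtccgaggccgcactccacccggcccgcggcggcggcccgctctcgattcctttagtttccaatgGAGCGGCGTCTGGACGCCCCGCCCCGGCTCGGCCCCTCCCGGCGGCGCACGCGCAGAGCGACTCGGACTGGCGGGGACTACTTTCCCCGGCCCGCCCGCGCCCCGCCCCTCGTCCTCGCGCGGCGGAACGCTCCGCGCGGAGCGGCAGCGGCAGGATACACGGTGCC

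The Ablim1 window was poorer in CpG than the others. It held 5 CpG dinucleotides and 48.3% G and C, against 26 and 62.7% for Pard3b, 31 and 65.3% for Tjp1, and 46 and 75.3% for Ctnnb1, and a median of 7 and 52.7% over the 32851 windows of the table. Of 8 short motifs searched on both strands, the ETS core GGAAG and the PU.1 form GAGGAA each matched inside the listed Ablim1 peak, at positions 199 and 200 counted from the 5′ end, so that these matches overlap. GGAAG occurred in 71.4% of all windows and GAGGAA in 28.3%. The Ablim1 window also held a second GAGGAA at position 18, where it overlapped a match to the IRF form GAAANNGAA (8.56% of all windows) at position 21, and 3 matches to the E-box CANNTG (72.3%), all outside the listed peak. Of these, the GAGGAA, the GAAANNGAA and the first CANNTG, at position 2, lay inside another merged peak, of 1 subpeak and in neither list, which covered the first 87 bases of the window and is not in capitals. The KLF/SP form GGGCGG, found in 35.7% of all windows, was not in the Ablim1 or Pard3b windows and occurred 2 times in Tjp1 and 3 times in Ctnnb1, each time inside the peak. Tjp1 had 1 GGAAG, also inside its peak. Pard3b had 2 matches to the RUNX form TGTGGT (16.8%), 3 to CANNTG and 1 to GAAANNGAA, all outside its peak. The AP-1 form TGANTCA (7.81%) and the CRE form TGACGT (7.51%) were in none of the 4 windows. These are matches of letters, not shown binding sites.

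Among the JAM genes, listed peaks were at Jam2 and at no other. JAMs are immunoglobulin-like membrane proteins that bind across cell contacts, and Jam2 and Jam3 encode partners that bind each other. Jam2 (NCBI gene 67374, chromosome 16, 84774123 to 84826380) held 7 merged peaks, all inside the gene, and 5 were YSM-listed. The first 3 lay at its lower end, at 84774062 to 84774370 with 3 subpeaks, and at 84774427 to 84774627 and 84774793 to 84774993 with 1 subpeak each. A subpeak is a peak called in a library before the merging, so an interval with 3 or fewer lacked a call in at least 1 of the 4 libraries. The first of these peaks ran across the gene's lower coordinate, and the 3 together spanned 932 bp, separated by gaps of 56 and 165 bp. The other listed peaks were at 84783321 to 84783527 (2 subpeaks), 9301 bp into the gene, and at 84814325 to 84814926 (6 subpeaks, 602 bp wide), 40502 bp into it. The peaks of Jam2 in neither list had 1 and 3 subpeaks, and the one with 3 ended 67 bp before the widest listed peak. With peaks within 1 kb counted as 1 site, Jam2 had 3 listed sites in place of 5 listed peaks. Across all protein-coding genes, 16 held 5 or more YSM-listed peaks.

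The other JAM genes had 18 peaks and none in either list. F11r, which encodes JAM-A, had 9, of which 5 were inside the gene and 4 past its end at 1838 to 14470 bp, with 1 to 6 subpeaks. The start of F11r had a peak of 2 subpeaks, 140 bp away. Jam3 had 6 peaks, with 1 to 4 subpeaks, and peaks of 4 subpeaks lay 141 and 861 bp from its ends. Esam, an endothelial relative of the JAMs, had 3 peaks, all inside the gene and none within 1 kb of its ends, with 4, 2 and 1 subpeaks. In all, 5 of 25 JAM peaks were YSM-listed (20.0%, interval 6.83 to 40.7), and all of these were at 1 gene.

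The 2 actin-binding LIM genes held 4 YSM-listed peaks among 17, all at Ablim1. These genes encode proteins that join LIM domains to an actin-binding headpiece. Ablim1 (NCBI gene 226251, chromosome 19, 57032733 to 57315344, minus strand) had 13 merged peaks, all inside the gene, with 1 to 6 subpeaks. The listed peaks were at 57181199 to 57181414 (2 subpeaks), 57197427 to 57197702 (5), 57211695 to 57212064 (3) and 57273097 to 57273310 (4). The table gave 5 starts for Ablim1, and the listed peaks lay 16325, 67, 4153 and 1465 bp from the nearest of them. The peak 67 bp away is the one in capitals above. A peak of 1 subpeak, 92 bp beyond it and in neither list, covered another 87 bases of that window. The outermost start, at 57314919, had no merged peak of the gene closer than 41716 bp. Ablim3 had 4 peaks with 2 to 4 subpeaks, of which those of 4 subpeaks lay 75 and 95 bp from its ends, and none was listed.

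Zonula occludens and polarity genes held the most merged peaks of any group, 87 at 9 genes, of which 4 were YSM-listed (4.60%, interval 1.27 to 11.4). Pard3b, a paralogue of the polarity gene Pard3, had 26 peaks, all inside a gene of 1003618 bp (NCBI gene 72823, chromosome 1, 61638667 to 62642284, plus strand). Its listed peaks were at 62414663 to 62414887, 62437738 to 62437982 and 62592049 to 62592252, each with 2 subpeaks, and lay 775951 to 953326 bp from the annotated start. The peak at that start, 116 bp away, had 4 subpeaks and was in neither list. Of the 26 peaks of Pard3b, 18 had 3 or fewer subpeaks. Pard3 itself had 11 peaks with 1 to 5 subpeaks and none listed, and the closest to either of its annotated starts was 30798 bp away.

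Marveld2, which encodes tricellulin, a protein of the corners where 3 cells meet, held 1 YSM-listed peak among 8. It lay inside the gene (NCBI gene 218518, chromosome 13, 100595957 to 100616971, minus strand) at 100600431 to 100600788, with 2 subpeaks, 16335 bp from the nearest start. Peaks of 1, 4 and 4 subpeaks followed it within 2 kb and were not listed, and neither was the peak of 4 subpeaks 224 bp from the start. Its neighbour Ocln, the occludin gene, had 4 peaks and none listed. One of these was the widest of all member peaks, 914 bp with 9 subpeaks, 441 bp from the nearer of the annotated Ocln starts.

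The other zonula occludens genes had peaks and no listed one. Tjp1, which encodes the scaffold ZO-1, held 23, all inside the gene, with 1 to 5 subpeaks, and 12 of them had 4 or more. The peak over its annotated start, 17 bp away, had 5 subpeaks. Among the claudin genes, Cldn1 had 5 peaks, and that at its start, 68 bp away, had 4 subpeaks. Its other 4 lay 7543 to 71797 bp past the gene. Cldn10 and Cldn11, of which the second is a claudin of myelin, had 3 each, with 1 and 0 inside the gene. Cgn, which encodes the plaque protein cingulin, had 4 peaks, of which 1 lay 134 bp from its start with 4 subpeaks.

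**Figure D2:**
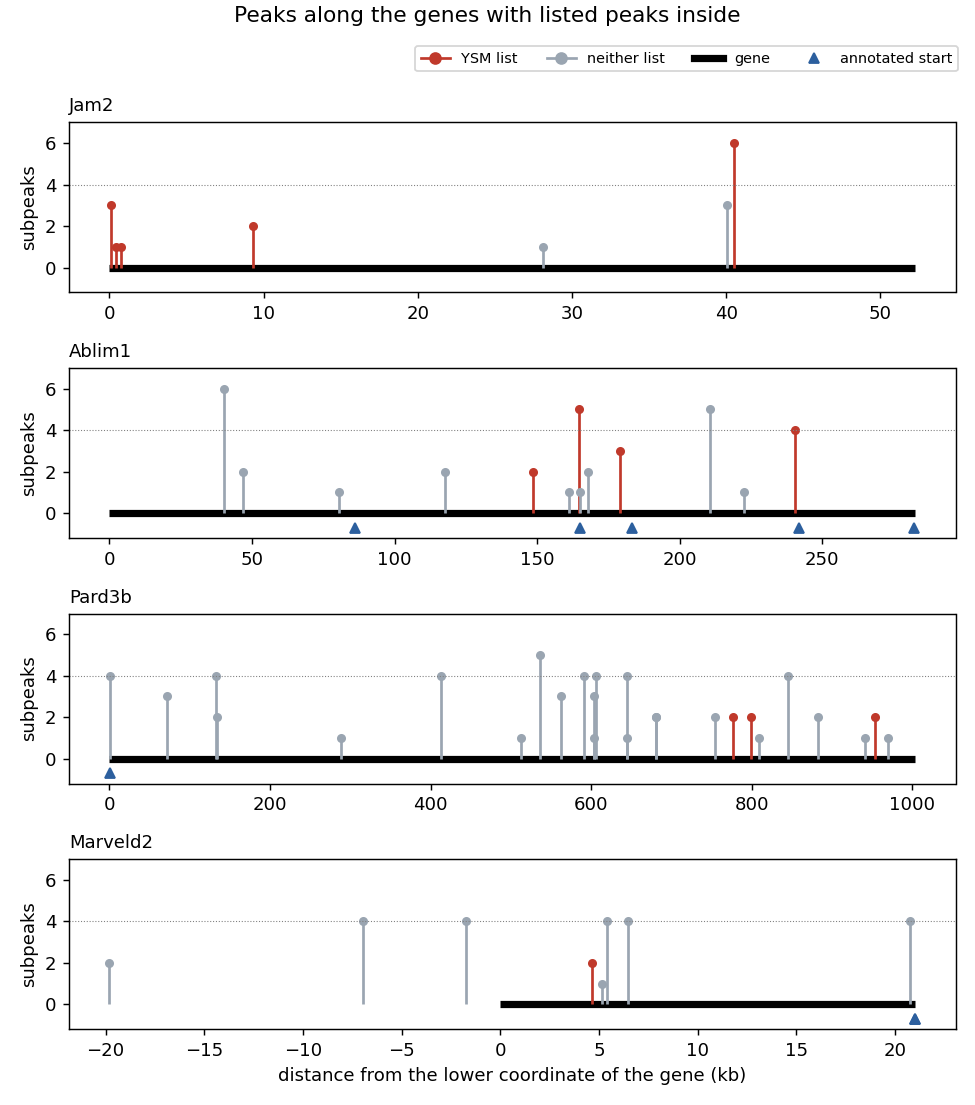
Merged peaks along the 4 genes with YSM-listed peaks inside them (horizontal axis, kb from the gene's lower coordinate; vertical axis, number of subpeaks), red for the YSM list and grey for neither; the black bar is the gene, triangles are annotated starts, and the dotted line marks 4 subpeaks. The listed peaks of Jam2 sit at the lower end and farther inside, those of Pard3b all have 2 subpeaks, and 1 of the 4 at Ablim1 lies on a triangle.

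The plots along the 4 genes show listed and unlisted peaks next to each other rather than whole genes listed together. At Marveld2, Jam2 and Ablim1, an unlisted peak lay within 250 bp of a listed one. With peaks within 1 kb counted as 1 site, each of these unlisted peaks fell into the same site as its listed neighbour. Absence from the lists does not show that a peak differed from the listed peak beside it.

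Most of the 9 cadherin genes had no merged peak. Merged peaks were assigned to 3 of them (33.3%), 11 in all, beside 70.3% of all protein-coding genes (15386 of 21896), and Cdh2, Cdh6, Cdh11, Cdh12, Cdh13 and Cdh18 had none. Of 14 other cadherin genes, 8 (57.1%) had peaks. None of these 6 had a peak centre inside the gene, although Cdh12 and Cdh13 span 1149544 and 1184913 bp. The nearest merged peak was 19.5 kb from Cdh13, where 8 peaks within 100 kb were closer to other genes, and 163 to 1130 kb from the other 5. Cdh1, which encodes E-cadherin of epithelia, had 8 peaks with 2 to 6 subpeaks, 4 of them inside the gene, and the peak 102 bp from its lower end had 6. Cdh4, which encodes R-cadherin, had 2, with 2 and 1 subpeaks. Cdh8, a neuronal cadherin gene (NCBI gene 12564, chromosome 8, 99024471 to 99417666, minus strand), had 1 peak, and it was YSM-listed. It lay at 98996025 to 98996244 with 2 subpeaks, 28337 bp past the end of the gene and 420337 bp from its start. With genes of every annotated kind, this peak was closer to another gene.

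Catenin genes had 42 merged peaks at 5 of 6 genes and none in either list. Catenins are the cytoplasmic partners of cadherins, and beta-catenin, encoded by Ctnnb1, also carries Wnt signals to the nucleus. Ctnnb1 had 8 peaks with 1 to 4 subpeaks, and that at its start, 14 bp away, had 4. Ctnnd1, which encodes p120-catenin, had 14, of which 10 had 4 or more subpeaks. The Ctnnd1 peak with the most, 8, lay 2 bp from an internal start. Ctnnd2, a neuronal relative of Ctnnd1, had 15, all inside the gene and all at least 255125 bp from its annotated start. The alpha-catenin genes differed among themselves: Ctnna1 had 3 peaks, Ctnna3 had 2 in 1573570 bp, and Ctnna2 had none, with the nearest merged peak 2280 kb away. One Ctnna1 peak also lay inside another gene. By 3 counts of the total, 0 of 42 allows a share of up to 7.14% (exact upper limit 8.41%), so a share like that of all peaks or of all junction genes could not be told from 0.

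Nectins are immunoglobulin-like adhesion proteins and afadin, encoded by Afdn, binds them to actin. Afdn had 7 peaks, Nectin1 had 7, Nectin2 had 3 and Nectin3 had 1. None of these 18 was in either list, which by 3 counts of the total allows a share of up to 16.7% (exact upper limit 18.5%). Of the 7 at Nectin1, 5 had 3 or fewer subpeaks. The Nectin2 peak 132 bp before the gene had 4, and the Nectin3 peak, 203 bp from its start, had 1.

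**Figure D3:**
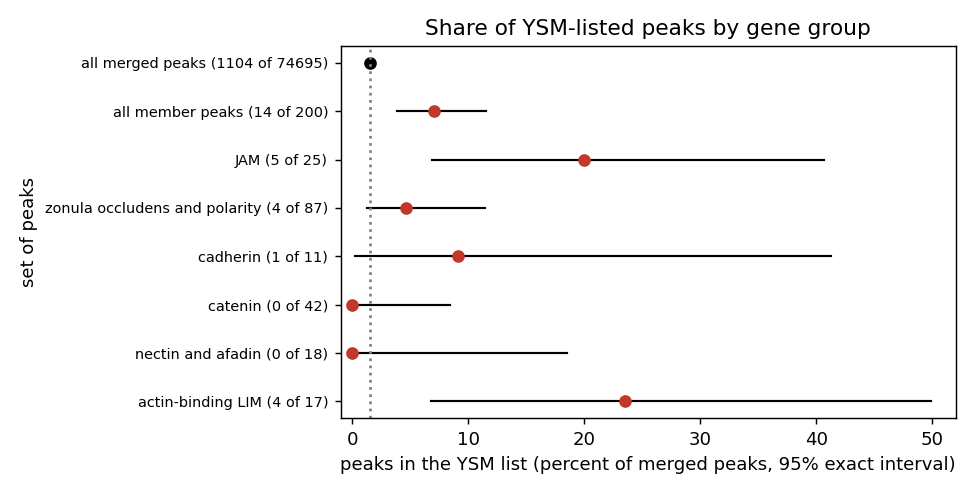
Share of merged peaks in the YSM list (horizontal axis, percent) for all merged peaks, all peaks of the junction genes and each gene group; points are shares, bars are 95% exact binomial intervals, and the dotted line is the share of all merged peaks. Shares run from 0 of 42 for catenins to 4 of 17 for actin-binding LIM genes, and all bars but those of all member peaks, JAM and actin-binding LIM reach the dotted line.

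The comparison of gene groups shows how few peaks stand behind each share. The JAM and actin-binding LIM intervals lay above the share of all merged peaks, with 5 and 4 listed peaks at 1 gene each, and differences between groups were not tested. Because the genes were chosen with earlier results known, the place of an interval beside the dotted line is no test.

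Of the peaks at junction genes, 53.0% (106 of 200) had 3 or fewer subpeaks, beside 42.3% of all merged peaks, and the medians were 3 and 4. The excess was mainly of peaks with 2 subpeaks, at 19.0% beside 11.6%. At the 5 genes with a listed peak, 67.3% of peaks (37 of 55) had 3 or fewer subpeaks, with a median of 2. At the 22 genes with peaks but no listed one, 47.6% did (69 of 145), with a median of 4. Among the 14 YSM-listed peaks, 7 had 2 subpeaks, 11 had 3 or fewer, and 3 had 4 or more: 1 at Jam2 with 6 and 2 at Ablim1 with 5 and 4. Across the study, 5.94% of the merged peaks with 2 subpeaks were YSM-listed, and at junction genes 18.4% were (7 of 38). For peaks with 1 subpeak these shares were 0.509% and 4.55% (2 of 44), with 3 subpeaks 2.55% and 8.33% (2 of 24), with 4 subpeaks 0.718% and 1.33% (1 of 75), and with 5 or more 0.758% and 10.5% (2 of 19). The share was higher at junction genes in each class, on counts of 1 to 7. Outside the class with 2 subpeaks, every listed peak was at Jam2 or Ablim1. The member genes were chosen with earlier results known, so these comparisons are not independent of the lists. The subpeak number follows from the same accessibility that set the lists and is no independent measure.

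**Figure D4:**
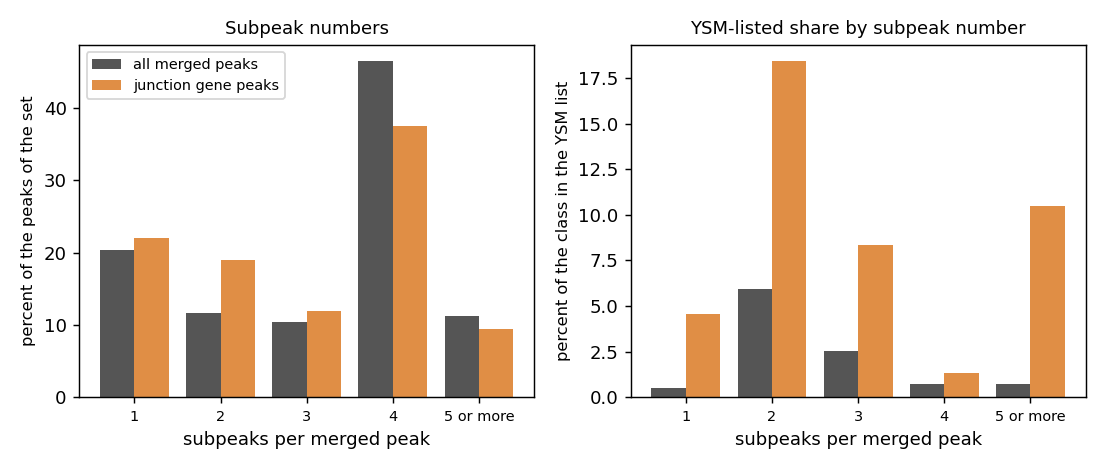
Left, percent of all merged peaks (dark) and of peaks at junction genes (orange) by number of subpeaks; right, percent of each class in the YSM list. On the left the orange bar exceeds the dark one most at 2 subpeaks (19.0% against 11.6%), and on the right the orange bars rest on 1 to 7 listed peaks each.

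By place, 157 of the 200 peaks were inside a member gene and 43 outside, and 20 lay within 1 kb of a gene end. Inside the genes 13 were YSM-listed (8.28%), beside 1.5% of all merged peaks inside a protein-coding gene, and outside 1 was (2.33%), beside 1.44% of all merged peaks outside protein-coding genes. Annotated starts were found for 23 of the 34 genes. The windows of 14 of these (60.9%) had a merged peak over them, beside 52.7% of all protein-coding genes with a window. Of the 13 listed peaks inside genes, 1 overlapped such a window. The 5 of them at Jam2 could not, since that gene had no window, although its first listed peak crossed the gene's lower coordinate. No window was at hand for Jam2, Jam3, Esam, Cdh1, Cdh2, Cdh4, Cdh11, Cdh13, Ctnna1, Nectin1 and Ablim3.

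At the other genes of cell junctions the YSM-listed share was near that of all merged peaks. A further 91 genes, which included other claudins and cadherins, desmosomal and gap junction genes, the remaining plaque proteins and related adhesion molecules, had 387 merged peaks at 62 genes. Of these 6 were YSM-listed (1.55%, beside 1.48% of all merged peaks) and none was MDM-listed. Pkp4, which encodes the catenin relative plakophilin 4, held 3 of its 13 peaks in the YSM list, all inside the gene. Igsf11, an adhesion molecule gene, held 2 of 4, both 74900 bp or more from the gene, and Arvcf, another catenin relative, held 1 of 4. The 85 peaks of other tight junction genes, the 75 of other cadherins and the 20 of gap junction genes were in neither list. On so few peaks, none of these counts of 0 could be told from the 1.48% of all merged peaks. Both sets of genes were chosen with earlier results of these data known, so their shares are not an independent comparison. The difference between these genes and the 34 was not tested.

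The labelled cell type was checked by where the peaks lay. All 12 macrophage and microglia genes checked, among them Spi1, Csf1r, Cx3cr1 and P2ry12, had merged peaks, 89 in all, and none was listed. A count of 0 of 89 could not be told from the YSM-listed share of all merged peaks, 1.48%. Of 42 genes that mark other cell types, 28 (66.7%) had merged peaks, near the 70.3% of all protein-coding genes, so the presence of peaks does not set those cell types apart. By cell type this ran from 2 of 6 lymphocyte and neutrophil genes (33.3%) to all 6 astrocyte genes, as for the macrophage genes. The peaks of the 42 genes numbered 168, and 10 of these were YSM-listed (5.95%, beside 7.0% at the junction genes and 1.48% of all merged peaks). Of the 10, 7 were assigned to Slc1a3 of astrocytes, 1 each to Mog and Mbp of oligodendrocytes and 1 to Emcn of endothelium. Those outside their gene lay 11824 and 91072 bp from Slc1a3, 5472 bp from Mog and 53358 bp from Emcn. The astrocyte genes had 45 peaks, so 15.6% of these were listed. The endothelial list shares Cldn5, Cdh5 and Pecam1 with the other junction genes, and the astrocyte list shares Gja1 with them. Tek and Erg of the endothelial list had no peak. The part of other cell types in the listed peaks at junction genes was not tested. A peak at a gene does not measure its expression.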

How the data were processed

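Intervals were analysed as the authors deposited them. Per the submitters' processing notes, the tools were HOMER, Picard, Bowtie2 2.2.5 and Trimmomatic 0.39, and the build was mm10. Per the file headers, the authors joined 4 library peak lists by mergePeaks. The names of the authors' differential lists tie them to DESeq2 and to a group. A further number beside each listed interval, of unstated meaning, was not used. The settings are not given in the sources at hand, and the merging of neighbours sets how many peaks a site counts as. The last number in each deposited peak name was read as its subpeak count: peaks with 1 were all 201 bp wide, and 0 exceeded that width times the count.

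Coordinates were written 1-based. Each peak was assigned, by its centre, to every protein-coding gene that held it or else to the nearest within 100 kb (21896 genes, RefSeq GRCm38.p6; all 34 names matched), so a peak can count for 2 genes. The assignment was tested on simulated positions. A listed peak had the same start and end as a merged one. Shares have exact Clopper-Pearson intervals. Python 3.11.15, pandas 2.3.3 and scipy 1.17.1 were used. The member genes and all gene lists were chosen with earlier results of these data known, so no test was run and no p-value is given. Named were all members, and other junction genes with at least 2 listed peaks. Statements on Arvcf and on the cell type genes with listed peaks were added after their values were seen. Exons, introns and expression were not analysed here.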

Additional observations from a re-analysis of the deposited data

How the results depend on the processing

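The share of YSM-listed peaks at junction genes, 7.0% at first, was 6.97% to 8.28% with other distance limits, with genes of every kind, with neighbours within 1 kb as 1 site, with at least 2 subpeaks, with any base inside the gene or with lists matched by 1 base. Limited to peaks with 4 or more subpeaks it fell to 3.19% (3 of 94, beside 0.726% of all such peaks), with 94 peaks in place of 200 and 2 genes with a listed peak in place of 5. Without Jam2 it was 4.66%, and without Jam2 and Ablim1, a choice made after seeing the data, 2.78%. The share with 3 or fewer subpeaks, 53.0% at first, was 41.8% for sites within 1 kb (33.2% over all sites) and 39.7% with at least 2 subpeaks (27.6% over all such peaks), as follows from summing subpeaks or dropping those with 1. The share of MDM-listed peaks was 0 under each alternative run. Of the single genes, Jam2 kept 1 listed peak and Ablim1 2 with 4 or more subpeaks, and Pard3b, Marveld2 and Cdh8 had 0. Of 95 values under an alternative, 79 stayed within the exact interval of the first share or, for counts, within 1.5 times the first count. Part of these 79 could not have moved. Leaving out Jam2 cannot change the listed peaks of another gene, and an MDM count of 0 stays 0 when peaks are dropped. Matching by 1 base changes nothing where merged peaks do not overlap. The 79 is therefore no measure of robustness. Leaving out a library was not run, since the intervals are pooled over libraries. No paired analysis was possible because the columns give no value per library.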

Other observations

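Peaks at the catenin gene Ctnnd2 lay in the middle of the gene. All 15 were 255125 to 568424 bp from its annotated start, in a gene of 856811 bp, and the one with most subpeaks had 7. Among other junction genes, and chosen after their values were seen, Cadm1, an immunoglobulin-like adhesion gene, had 39 merged peaks, of which 37 were inside the gene, Cdh23, a cadherin of hair cell tip links, had 36 with 34 inside, and Clmp, a relative of the JAMs, had 28. None of the peaks of these 3 genes was in either list, which at these peak numbers could not be told from the 1.48% of all merged peaks that were YSM-listed.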
